A study of Mus musculus with 4 samples.

Results

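The 46 genes described here encode the receptors for glutamate and GABA, the main excitatory and inhibitory transmitters of the brain. They were taken from a table of 25965 gene entries by symbol alone: 4 AMPA, 5 kainate and 7 NMDA receptor subunits, 2 delta receptors, 8 metabotropic glutamate receptors, 18 GABA-A and 2 GABA-B receptor subunits. The RNA came from female mouse neural stem cells, cultured from E14.5 embryos of mixed C57BL/6, 129 and Castaneus (Cast) background. Every line carried Smchd1 del/fl at the start, that is, a deleted and a conditional allele of the chromatin protein gene Smchd1, and Xist 129-KO/Xist WT-Cast, so the 129 X from the mother has an Xist allele lacking the A region and the X from the father is Cast. Deleted cells (Smchd1 del/del) had been given Cre and puromycin resistance by an MSCV retrovirus, were under puromycin from 24 h after transduction and were harvested 7 days after it. Control cells (Smchd1 del/fl) were the part of the same line that was left untransduced, so the effects of deletion, transduction and selection cannot be told apart. There were 4 libraries, a control and a deleted library from each of 2 lines, called A and B. The series' design text speaks of 3 per genotype, and further lines were not analysed here.

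AMPA, kainate and NMDA receptors are cation channels assembled from subunits of their own class and opened by glutamate, whereas metabotropic glutamate receptors act through G proteins. GABA-A receptors are chloride channels of mixed alpha, beta and gamma subunits, and the GABA-B receptor is a G protein-coupled dimer. Dividing neural precursors and astrocytes are known to carry several of these receptors, besides the neurons in which they serve synapses.

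The promoters of 3 genes that rose after deletion are shown because they differ widely in sequence; they were chosen after the values were seen. Gria2 holds the only match to the RE1 core among the receptor promoters, and Gabrg1 and Gabra4 lie in the same GABA-A gene cluster. Each line gives the 250 bases before the annotated start, 5′ to 3′ on the strand of the gene (RefSeq, GRCm38.p6), at chr3:80802836-80803085, chr5:70842618-70842867 and chr5:71658309-71658558, all on the minus strand. Capitals mark motif matches, the RE1 core in Gria2 and GC boxes in Gabra4, each on the strand opposite to the one printed.
Gria2: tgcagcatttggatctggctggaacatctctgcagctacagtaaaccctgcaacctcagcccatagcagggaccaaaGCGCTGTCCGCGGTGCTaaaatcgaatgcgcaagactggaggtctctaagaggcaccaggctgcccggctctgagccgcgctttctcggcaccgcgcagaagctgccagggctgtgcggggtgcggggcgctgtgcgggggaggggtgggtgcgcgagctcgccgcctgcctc
Gabrg1: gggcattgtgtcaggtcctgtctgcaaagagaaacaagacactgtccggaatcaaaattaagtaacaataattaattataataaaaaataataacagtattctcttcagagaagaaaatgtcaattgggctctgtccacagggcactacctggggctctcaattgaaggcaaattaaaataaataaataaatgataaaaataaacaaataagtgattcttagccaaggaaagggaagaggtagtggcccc
Gabra4: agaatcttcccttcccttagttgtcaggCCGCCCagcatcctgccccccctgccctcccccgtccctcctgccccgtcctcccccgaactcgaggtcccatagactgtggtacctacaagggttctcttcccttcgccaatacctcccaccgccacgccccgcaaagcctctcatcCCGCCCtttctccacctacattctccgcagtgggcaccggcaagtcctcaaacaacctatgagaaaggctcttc

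RE1 is the element bound by REST, a repressor of neuronal genes, and the core searched was AGCACC, any 2 bases and GGACAGCGC, on both strands. It occurred in 1 of the 38 promoter windows, each spanning a start site, that matched 31 receptor genes and in 5 of all 32851 windows, or 0.0152%. The GC box GGGCGG was in 19 of the 38 windows and in 35.7% of all windows. The TATA box TATAAA was in 4 and in 13.6%, and the cyclic AMP element TGACGTCA was in 0 and in 1.79%. The printed Gria2 stretch held 19 CpG dinucleotides, that of Gabra4 12 and that of Gabrg1 1. Over whole windows the number of CpGs ranged from 0 to 50 among receptor genes (median 12, and 7 for all windows). A match describes letters only.

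Library totals lay between 29873400 and 34018500 counts. The targeted gene Smchd1, on chromosome 17 at 71344489 to 71475343 of mm10, had 2779 (A) and 3461 (B) counts in controls versus 785 (A) and 852 (B) in deleted cells, a log2 fold change of −1.96 (SE 0.07, edgeR adjusted p = 0.0194, and 0.341 without the line term). The stem cell filament gene Vim was among the most highly counted genes of the list of stem cell markers, at 78499 to 136144 counts in every library. Interferon-stimulated genes, 8 in the list, summed to 67.9 CPM (counts scaled to library size) for control A, 42.8 for control B, 361 for deleted A, 56.8 for deleted B, so deleted A stood apart. All 8 had positive fold changes (median 2.58) and edgeR called 0 of them. The part of that difference in the results below was not tested.

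**Figure D1:**
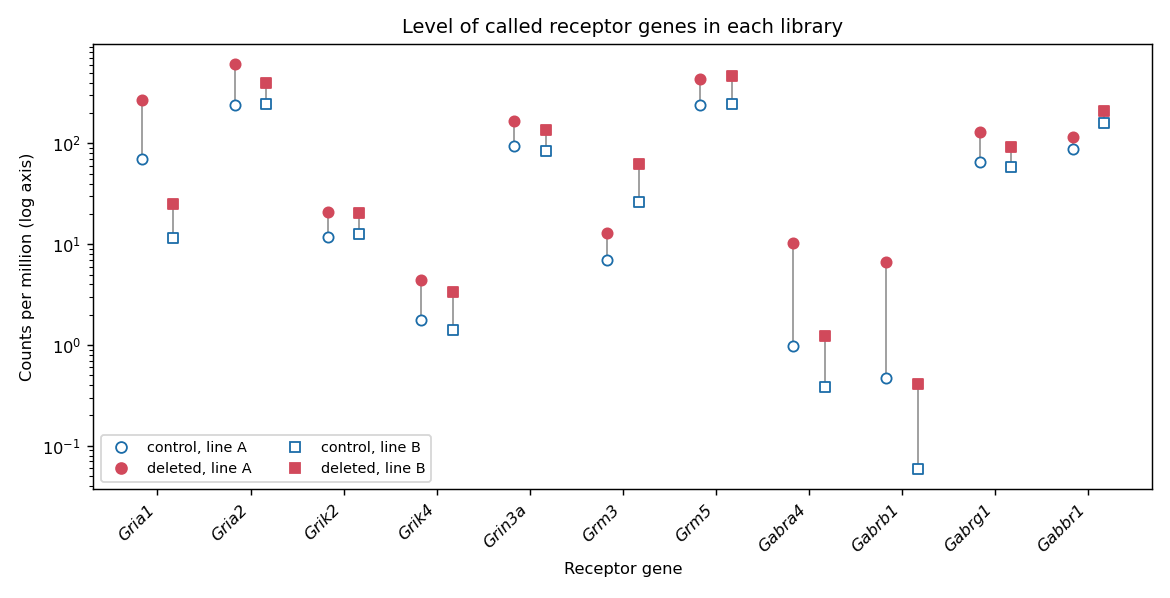
Level of 11 receptor genes called higher in deleted cells, in CPM (counts scaled to library size) on a log axis. Open blue symbols are control and filled red symbols deleted libraries, circles line A and squares line B, and a grey line joins the libraries of a line. In both lines the deleted library exceeded its control for each gene, while Gria1, Grm3, Gabrb1 and Gabbr1 differed enough between lines for the groups to overlap.

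Glutamate and GABA receptor genes were more often higher than lower after deletion. Of the 46 genes, 34 had enough counts to be tested, 12 of them rose and 0 fell at an adjusted p under 0.05 in edgeR with line as a term. Among all 14860 tested genes 3.71% rose and 1.89% fell. The unadjusted p in edgeR was under 0.05 for 23 receptor genes with a higher level and 0 with a lower one. Over all 14860 tested genes, 2553 were higher and 2019 lower at that unadjusted threshold. DESeq2 and limma-voom with the same term also called 0 receptor genes lower. Among the genes that rose were Gria1, Gria2, Grik2, Grik4, Grin3a, Grm3, Grm5, Gabra4, Gabrb1, Gabrg1 and Gabbr1. RLE scaling called 13 receptor genes higher, beside 4.06% of all genes higher and 2.05% lower. DESeq2 also called 13 (5.17% and 2.83%) and limma-voom 14 (5.4% and 2.71%). The fit with no filter called 15 of the 44 receptor genes it tested (6.04% and 3.59% of its 18715 genes). The median log2 fold change of the 34 was 0.82, and that of all tested genes 0.01. Leaving out the delta receptors, the median by family was 1.07 for AMPA, 0.75 for kainate, 0.13 for NMDA and 0.998 for metabotropic glutamate receptors, 1.12 for GABA-A and 0.45 for GABA-B subunits. Of 22 tested glutamate receptor genes 7 rose, and of 12 tested GABA receptor genes 5. Positive values were seen for 30 of the 34 and for 51.7% of all tested genes. Without the line term edgeR called 0 genes of 14860 (at an unadjusted p under 0.05, 1019 were higher, 718 lower), and the adjusted p of the 12 ran from 0.341 to 0.739, although an unadjusted p under 0.05 was reached by 12 receptor genes, all of them higher. More cells of a type and more RNA per cell cannot be told apart in such bulk samples.

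The filter on counts shapes these numbers. It required counts in at least 2 libraries, so a gene nearly silent in controls entered through the deleted libraries. Gabra3 did so with 1 and 9 counts in controls versus 12 and 32 in deleted cells, and Gabra5 with 7 and 7 versus 36 and 15. The called gene Gabrb1, with 14 and 2 counts in controls, could not have passed on its controls alone. Such genes could hardly enter unless higher in deleted cells, and they are part of the counts of genes that rose or had positive values. How many of the tested genes entered this way was not counted. The 12 genes left out had at most 10 counts in any library. Among them were Grm2, Grm6, Grm7 and Grm8 among the metabotropic receptors and Gabra6, Gabrd, Gabre, Gabrq, Gabrr1, Gabrr2 and Gabrr3 among the GABA-A subunits. Gabra6 and Gabrr3 had 0 counts in every library. Just inside the filter was Grik1, with 3 and 12 counts in controls versus 10 and 16 in deleted cells, and just outside it Gabrr2, with 7 and 6 against 3 and 3.

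**Figure D2:**
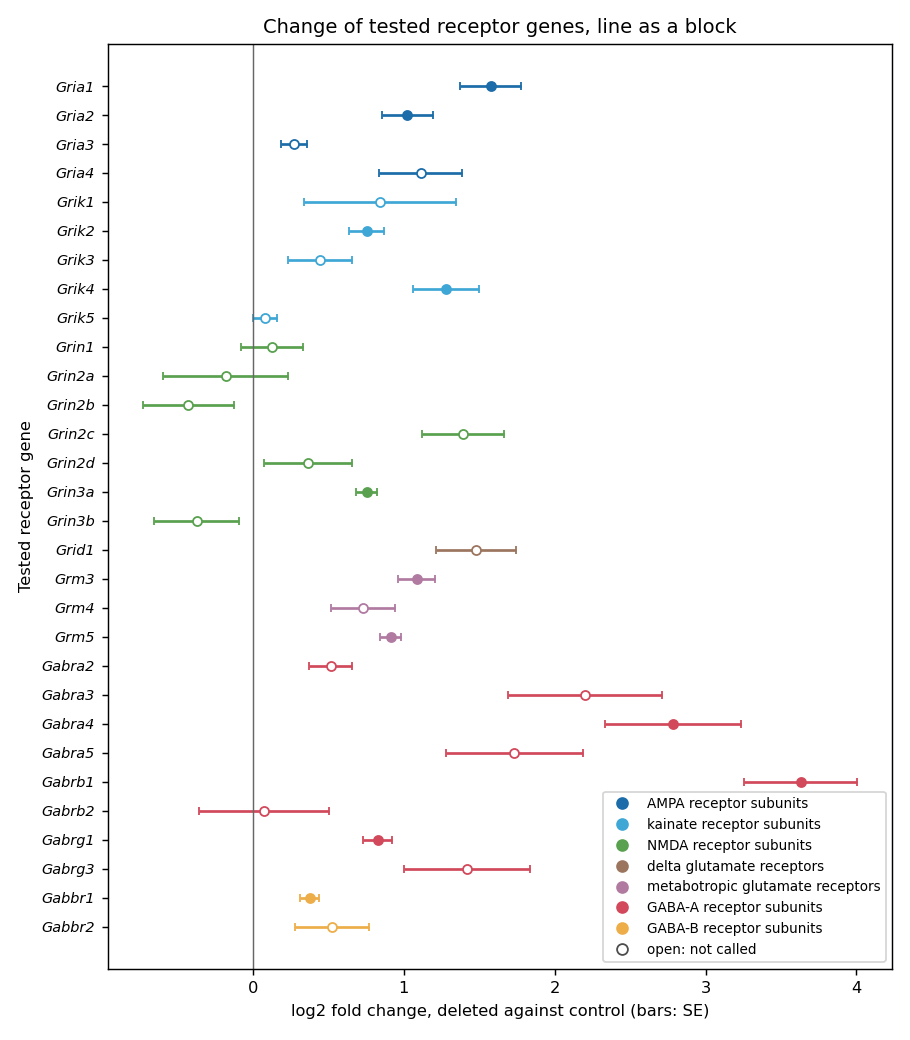
log2 fold change (deleted against control, edgeR with line as a term) of 30 tested receptor genes, coloured by family, with bars of 1 SE and filled points for called genes. Of the 30 points, 27 lie to the right of 0, and those to its left are Grin2a, Grin2b and Grin3b, none of which was called.

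Among the AMPA receptor subunits, which carry fast excitatory currents, 2 of 4 rose. Gria2, the subunit that makes the channel poorly permeable to calcium (chromosome 3, 80684936 to 80802791), was at 238 and 246 CPM in control A and B and at 610.3 and 397 in deleted A and B. Both deleted libraries lay above both controls, and the log2 fold change was 1.02 (SE 0.17, edgeR adjusted p = 0.0443). Gria1 (chromosome 11, 57011387 to 57330244) was at 70.3 and 11.6 CPM in controls versus 268 and 25.1 in deleted cells. The groups overlapped because line B held far less of it, but the level rose within both lines, by 3.81-fold in A and 2.17-fold in B (log2 fold change 1.58, SE 0.20, edgeR adjusted p = 0.0309). Without deleted A and without the line term its value turned to −0.70.

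Gria4 was not called, with 83.2 and 82.0 CPM in controls versus 267 and 119 in deleted cells (1.11, SE 0.28, edgeR adjusted p = 0.0792). Its deleted libraries differed from each other more than the controls did. The X-linked subunit Gria3 was at 188 and 152 in controls versus 247 and 167.5 in deleted cells (0.27, SE 0.09, edgeR adjusted p = 0.119). Per kilobase of exon, with GENCODE M21 exons, controls held on average 17.2 CPM of Gria3, 15.6 of Gria2, 13.1 of Gria4 and 6.77 of Gria1. In deleted cells the order was Gria2 (32.4), Gria4 (30.6), Gria1 (24.2) and Gria3 (21.0). The control order held in line A, while in control B Gria2 (15.8) was above Gria3 (15.4). Gria1 was the lowest in both controls, but was the highest of the 4 in deleted A (44.3) and the lowest in deleted B (4.15).

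Of the 5 kainate receptor subunits 2 rose. Grik2 (chromosome 10, 49099460 to 49788766), a subunit that forms channels by itself, was at 11.9 and 12.5 CPM in controls versus 21.1 and 20.2 in deleted cells, a rise of 0.75 (SE 0.12, edgeR adjusted p = 0.0405). Grik4 (chromosome 9, 42518135 to 42944493), which needs such a partner, was low throughout, at 1.78 and 1.41 in controls versus 4.42 and 3.34 in deleted cells (1.28, SE 0.22, edgeR adjusted p = 0.0467). For both genes the groups did not overlap, and the lines gave nearly the same ratio, 1.31 and 1.25 in log2 for Grik4. DESeq2 did not call Grik4 (adjusted p = 0.0978). Grik5, the other subunit that needs a partner and the most highly counted kainate gene, had 114 CPM in each control versus 111 and 130.4 in deleted cells (0.08, SE 0.08, edgeR adjusted p = 0.555). Grik1 (0.84, SE 0.50) and Grik3 (0.44, SE 0.21) were not called.

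In the NMDA receptor family 1 of 7 genes rose. Grin3a, a subunit known to lower calcium flow through the receptor (chromosome 4, 49661611 to 49845744), was at 94.8 and 84.5 CPM in controls versus 166 and 137 in deleted cells. The groups were apart, with a log2 fold change of 0.75 (SE 0.07, edgeR adjusted p = 0.0215). Grin1, the subunit that every NMDA receptor requires, was much lower, at 7.13 and 5.78 in controls versus 6.36 and 7.72 in deleted cells (0.13, SE 0.21). The span of Grin3a holds Ppp3r2 on the same strand, an entry of 29 to 68 counts. Per kilobase of exon there were 0.666 CPM of Grin1 and 7.30 of Grin3a in controls. The span of Grin1 overlaps an antisense entry, E130003G02Rik, with 93 to 110 counts, which could share reads if strand was not used in counting.

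The glutamate-binding NMDA subunits were low and none was called. Grin2c, known from cerebellum and astrocytes, was at 1.11 and 5.87 CPM in controls versus 4.27 and 11.9 in deleted cells (1.39, SE 0.27, edgeR adjusted p = 0.0558). The value was positive in both lines, and DESeq2, limma-voom and the fit with no filter called it. Grin2a (−0.18, SE 0.41), Grin2b (−0.43, SE 0.30) and Grin2d (0.36, SE 0.29) were not called. Grin3b (−0.37, SE 0.28) overlaps ORF61, an entry with 3050 to 3490 counts on the other strand, so its 31 to 48 counts are uncertain.

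Delta receptors are adhesion-type members of the ionotropic family that do not open to glutamate alone, and neither was called. Grid1 went from 119 (A) and 223 (B) counts to 530 (A) and 420 (B) (1.48, SE 0.27, edgeR adjusted p = 0.0509). Its groups did not overlap, and RLE scaling, DESeq2, limma-voom and the fit with no filter each called it.

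Metabotropic glutamate receptors were represented mostly by Grm5 and Grm3, both of which rose. Grm5 (chromosome 7, 87602544 to 88134907), which signals through phospholipase C, was at 240.0 and 244 CPM in controls versus 440 and 472 in deleted cells. The libraries of each group were close together and the groups far apart, with a log2 fold change of 0.91 (SE 0.07, edgeR adjusted p = 0.0194). Per kilobase of exon the mean of Grm5 over the lines was the highest of the receptor genes, 23.6 CPM in controls, beside 22.0 for Grik5, and 44.5 in deleted cells. In deleted A alone, Gria1 (44.3) was above Grm5 (42.9). Grm3 (chromosome 5, 9485236 to 9725352), which inhibits adenylyl cyclase and is known from astrocytes, was at 7.00 and 26.3 in controls versus 13.0 and 62.1 in deleted cells. Line B held more of it in both states, so the groups overlapped, and within lines it rose by 1.86-fold in A and 2.36-fold in B (1.08, SE 0.12, edgeR adjusted p = 0.0251). Without deleted B and without the line term its value turned to −0.37. Grm4 (0.73, SE 0.21, edgeR adjusted p = 0.103) was positive in both lines and not called.

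GABA-A subunits rose in 4 of the 10 tested cases. Gabrg1 (chromosome 5, 70751047 to 70842617), a gamma subunit known from glia, was at 65.2 and 58.2 CPM in controls versus 129 and 92.5 in deleted cells (0.83, SE 0.10, edgeR adjusted p = 0.0265). The groups did not overlap. The most highly counted alpha gene, Gabra2, was at 15.4 in each control versus 25.4 and 19.0 in deleted cells (0.51, SE 0.14, edgeR adjusted p = 0.0933).

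The largest fold changes among tested receptor genes were of Gabrb1 and Gabra4, both low in controls. Gabrb1 (chromosome 5, 71699932 to 72138389) had 14 counts in control A, 2 in control B, 222 in deleted A and 13 in deleted B, and the log2 fold change was 3.63 (SE 0.37, edgeR adjusted p = 0.0227). Gabra4 (chromosome 5, 71569734 to 71658308) had 29 and 13 against 343 and 39 in the same order (2.78, SE 0.45, edgeR adjusted p = 0.0432). For both, most of the counts lay in deleted A, the library in which interferon-stimulated genes were also high, and in CPM deleted B (0.406) stayed below control A (0.471) for Gabrb1. In line B alone the log2 ratio was 2.79 for Gabrb1, with a wide 95% counting interval of 0.649 to 5.98, and 1.68 for Gabra4 (0.740 to 2.71).

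Many GABA-A genes lie in clusters. On chromosome 5, where Gabrg1, Gabra2, Gabra4 and Gabrb1 share 1387 kb, all 4 genes were tested and 3 rose. On chromosome 7, Gabrg3 (1.42, SE 0.42, edgeR adjusted p = 0.104) and Gabra5 (1.73, SE 0.45, edgeR adjusted p = 0.0853) were not called. On chromosome 11, Gabrb2 (0.07) was not called, and Gabra6 was too low to test. On the X, in 586.6 kb, Gabra3 was tested and not called (2.20, SE 0.51, edgeR adjusted p = 0.0714). Whether clusters differed was not tested.

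Both GABA-B subunits were expressed, at very unequal levels. Gabbr1, which binds GABA (chromosome 17, 37045966 to 37075067), was at 88.7 and 161 CPM in controls versus 115 and 208 in deleted cells. The groups overlapped, but the log2 ratio nearly coincided between lines, 0.38 in A and 0.37 in B, and the rise of 0.38 (SE 0.06) had an edgeR adjusted p of 0.0471. Without deleted B and without the line term the value turned to −0.13. Gabbr2, which couples the dimer to the G protein, was at 1.75 and 1.47 in controls versus 2.24 and 2.37 in deleted cells (0.52, SE 0.25, edgeR adjusted p = 0.225). Per kilobase of exon the controls held 16.1 CPM of Gabbr1 and 0.241 of Gabbr2.

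**Figure D3:**
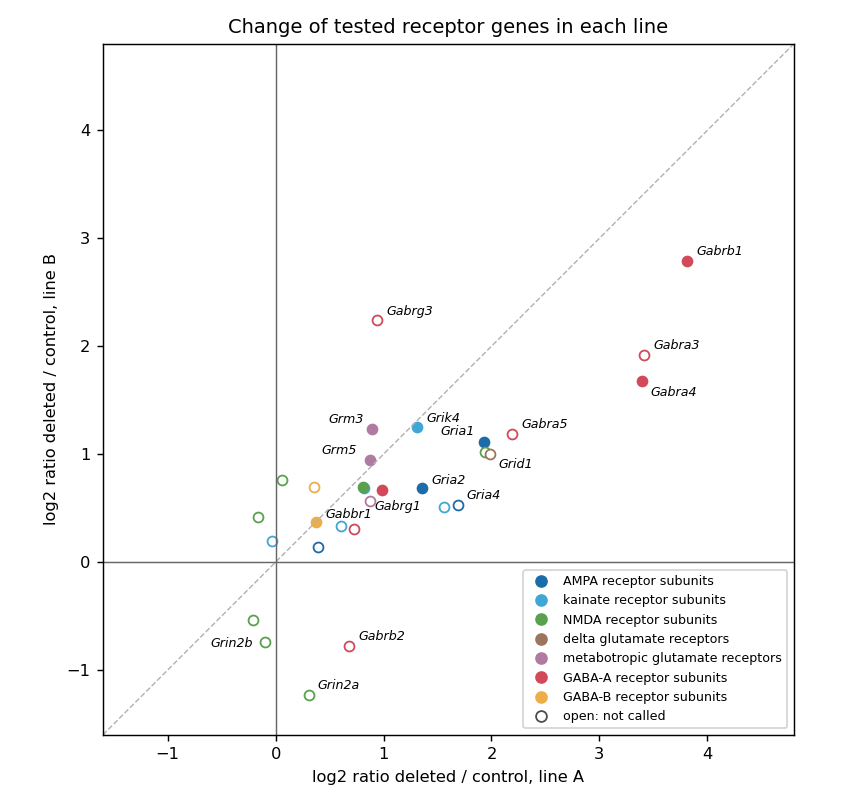
log2 ratio of deleted to control CPM in line A (horizontal) and line B (vertical) for 30 tested receptor genes, coloured by family, filled where called. The dashed line marks equal ratios, and the AMPA subunits, Gabra4 and Gabrb1 lie on the side of line A.

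The lines moved the same way for most genes and by unequal amounts. In CPM, 27 of the 34 tested genes exceeded the control in both lines and 2 lay below it in both, beside 38.1% and 36.4% of all tested genes. Both deleted libraries lay above both controls for 17 genes and below them for 2 (Grin2b and Grin3b), beside 22.9% and 22.8%. The median log2 ratio of the 34 was 0.87 for A and 0.69 for B. For 12 genes the 95% counting intervals of the lines did not overlap, and 10 of those had the larger ratio in line A, all 4 AMPA subunits among them. The same count was not made over all tested genes, so whether receptor genes differ from them here was not tested. Gria4 had a ratio of 1.69 (1.62 to 1.75) in A and 0.53 (0.461 to 0.603) in B, and Gria2 of 1.36 (1.32 to 1.40) and 0.69 (0.649 to 0.729). The 2 genes with the larger ratio in line B were Grik5 and Grin1. With 1 library of each kind per line, these intervals cover counting error only and the difference between lines has no replicate check.

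Genes that serve the receptors were taken from lists of the pathway. Their counts stand beside 3.71% higher and 1.89% lower among all 14860 tested genes, whose median log2 fold change was 0.01. Their median log2 fold changes were 0.30 for AMPA and kainate auxiliary subunits, 0.32 for GABA receptor scaffolds, −0.17 for metabotropic receptor partners, 0.44 for transporters and 0.61 for enzymes of synthesis and breakdown. Of the auxiliary subunits of AMPA and kainate receptors, 13 of 15 were tested and 1 rose, Gsg1l, which slows AMPA receptor recovery, from 18 and 54 counts in controls to 261 and 222 in deleted cells (2.79, SE 0.40, edgeR adjusted p = 0.0365). Of the GABA receptor scaffolds and partners 2 of 5 tested rose, among them the anchoring protein gene Gphn (0.42, SE 0.07). Of the metabotropic receptor partners, 8 tested, the scaffold gene Homer2 rose (0.78, SE 0.10), while Homer3 (−0.39, SE 0.06) and the phospholipase gene Plcb1 (−0.91, SE 0.10), which acts below Grm5, fell.

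Transport and metabolism of the transmitters came next, beside the same 3.71% higher and 1.89% lower among all tested genes. Of 9 tested transporters 3 rose, among them the GABA transporter Slc6a11 and the glial glutamate transporter Slc1a3 (0.96, SE 0.08). Slc6a11 went from 1333 (A) and 2877 (B) counts to 2996 (A) and 10608 (B). The vesicular transporters Slc32a1 and Slc17a6, which load GABA and glutamate for release, had at most 2 counts in any library. Other vesicular glutamate transporter genes of the list had more, up to 97 counts in a library, and were tested and not called. Of 8 enzymes 2 rose, Aldh5a1 of GABA breakdown (0.98, SE 0.10) and glutamate dehydrogenase Glud1 (0.53, SE 0.07). Gad1, which makes GABA and, like Slc12a2 and the vesicular transporters, is named after its values were seen, had 64 and 1333 counts in controls versus 290 and 2421 in deleted cells (1.31, SE 0.24, edgeR adjusted p = 0.0533). The neuronal chloride exporter gene Slc12a5 rose (1.02, SE 0.18, edgeR adjusted p = 0.0476), and the importer gene Slc12a2 was not called (−0.18, SE 0.07). Without the line term edgeR called 0 of these genes.

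Cell type markers were read beside the receptor genes. Among all 14860 tested genes 3.71% rose and 1.89% fell, with a median log2 fold change of 0.01. Astrocyte markers rose at 6 of 8 genes (median log2 fold change 1.17), and their summed level went from 1612 and 1778 CPM in controls to 3212 and 3322 in deleted cells. They were the water channel gene Aqp4 (2.01, SE 0.16), S100b (2.64, SE 0.28), the filament gene Gfap (1.38, SE 0.21), the connexin gene Gja1 (0.64, SE 0.08), Aldh1l1 (0.62, SE 0.08) and Slc1a3. Slc1a2 and Slc1a3 are in that list and in the transporter list. Of 9 tested neuron markers 0 rose and 1 fell, Syt1 (−1.47, SE 0.07), the median was 0.17, and the summed level was 222 and 121 in controls versus 126 and 78.7 in deleted cells. Without Syt1 (a choice made with its values known) the other 8 summed to 51.4 and 48.8 CPM in controls versus 64.4 and 52.8 in deleted cells. Of 8 tested oligodendrocyte lineage markers and 7 stem cell markers none was called by edgeR (medians 0.36 and −0.11). Olig1 had −0.03 and Olig2 −0.24, and Vim −0.28 and Fabp7 0.21. Microglia markers summed to between 10.4 and 11.3 CPM in the 4 libraries, with Cx3cr1 at 0, and mesenchyme and endothelium markers to at most 2.66, with Lum and Cdh5 at 0. The part of these shifts in the receptor results was not tested.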

How the data were processed

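RNA sequencing counts of 4 libraries were used. Their values are unnormalized counts, deposited as whole numbers per gene entry, and the 4 columns of all aligned reads were used. Another 8 columns of per-sample values, reads split by parental genome, could not be tied to single samples and were not analysed here. The submitters' processing notes name bcl2fastq, TopHat2 2.0.12, edgeR and the build mm10. For the counting tool and its use of strand, nothing is given in the sources used here.

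A column's name gave its group, and a number shared by a control and a deleted column was read as the line. Each line was divided before transduction, per the labels' protocols, which pairs them. Deviations of the same-line libraries from their group means correlated at r = 0.72 across 14860 genes (genes within 1 sample are no independent replicates). Principal component 1 held 58.1% of the variance, and which libraries it separates was not examined. Because each line was divided, line is a term of the test (edgeR 4.0.16 quasi-likelihood, TMM, filterByExpr, R 4.3.3). That term leaves 1 residual degree of freedom. P-values were adjusted by Benjamini-Hochberg over all tested genes at 0.05, SE is the log2 fold change divided by the root of F, and p-values reflect only how these cultures vary. CPM values are counts scaled by TMM library sizes and carry no error with 2 libraries per group, each value being shown instead. Alternatives were no line term, RLE scaling, DESeq2 1.42.0, no filter, libraries and lines left out, and limma-voom (limma 3.58.1), the last chosen after seeing the data. The test was also run on simulated counts, with the same change in both lines and a spread estimated from these data. Such counts cannot show how the test behaves where the lines change by unequal amounts. Ratios within a line have exact binomial 95% intervals, which cover counting error only.

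Smchd1, the called receptor genes, the most highly counted of each family (2 where none was called), and, in other lists, the called genes or the 2 with most counts were named by rule, with other members added to account for the set. Some genes are not reported by name here, although counts and medians include them. Members and lists were chosen with earlier results of these data known. All 46 symbols were found in GENCODE M21 at an overlapping position, and exon lengths are the union of its exons.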

Additional observations from a re-analysis of the deposited data

How the results depend on the processing

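Whether line is a term of the fit decides the calls, and why calls were lost without it was not tested. With no replicate block, that is, without the line term that pairs the libraries, edgeR called 0 receptor genes higher and 0 genes of all higher or lower, and Smchd1, at −1.96, lost its call. The fits that leave out a library cannot carry the line term, so they also lack it, and only effect sizes are given for them. There the log2 fold change of Smchd1 ran from −2.07 to −1.87 (−2.00 and −1.93 within lines A and B, with no test). A lone library in such a fit is assumed to vary like the others. The median of the 34 tested receptor genes ranged from 0.63 (without deleted A) to 0.91 over the left-out libraries and lines, and from 0.80 to 0.82 over the other fits. With line in the model, RLE scaling called 13 receptor genes higher, DESeq2 13, limma-voom 14 and the fit with no filter 15 of 44, with 0 lower in each. All 12 remained called but Grik4 in DESeq2. With no filter 1131 of 18715 genes were higher and 671 lower, against 551 and 281 of 14860.

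Signs turned in some fits with a library left out. Over left-out libraries and lines together, log2 fold changes ranged from −0.70 (without deleted A) to 3.66 for Gria1, from −0.37 (without deleted B) to 2.42 for Grm3, from −0.13 (without deleted B) to 0.87 for Gabbr1, from −0.051 to 0.197 for Grik5 and from −0.016 to 0.53 for Gria3. The range was −0.96 to 1.94 for Grik3, −0.17 to 0.42 for Grin1, −2.37 to 1.24 for Grin2a, −0.23 to 1.11 for Grin2d and −0.99 to 0.86 for Gabrb2. Grin2a also turned to 0.087 with no replicate block and Gabrb2 to −0.023 in DESeq2. The fits with a library left out compare libraries across lines, and the cause of these turns was not tested. The alternative minimum for counts split by parental genome was not run, since those columns were not used.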

Other observations

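Control levels of several receptor genes differed between lines by more than the fold change after deletion. In control A and B, Gria1 was at 70.3 and 11.6 CPM (counts scaled to library size), Grm3 at 7.00 and 26.3, Grik3 at 1.08 and 5.25, and Grin2c at 1.11 and 5.87. Grm5, Gria4 and Grik5, at 240.0 and 244, at 83.2 and 82.0, and at 114 in both, were nearly equal between control lines. Each line gave 1 control library, so a difference between lines has no replicate check.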
